A study of Mus musculus with 12 samples.

Results

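Ly6c1, Ly6a and Ly6e, genes for small Ly6 proteins of the cell surface, were followed by their transcripts in naive CD4 T cells of mice. The rule takes them by symbol, and they are 3 of the 10073 genes listed with an RPKM value (reads per kilobase of gene length, scaled to the depth of the library). Ly6c2 was the fourth symbol looked for and is not analysed here. The values are levels of RNA, and no protein level was measured.

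The study asked how gene expression differs among naive CD4 T cells that differ in basal T cell receptor signalling. RNA was sequenced from 12 libraries, with 4 sorted populations from each of 3 untreated mice. All cells came from spleen together with lymph nodes and were sorted as CD4+, CD44lo and negative for the Foxp3-RFP reporter. Within that gate, population D was Nur77-GFP high and Ly6C negative, population C was Nur77-GFP intermediate and Ly6C negative, population B was Nur77-GFP intermediate and Ly6C positive, and population A was Nur77-GFP low and Ly6C positive, with 3 libraries in each. Every mouse, and so every population, carried the Tg(Nr4a1-EGFP)GY139Gsat transgene, in which Nr4a1 (Nur77) regulatory sequence drives GFP, together with the Foxp3tm1Flv reporter allele on a C57/BL6 background. The labels do not give age or sex. Libraries are named by the labelled population and the mouse, so that D1 is population D of mouse 1. Because GFP and Ly6C were gated together, no population pairs the high GFP gate with Ly6C positive cells or the low gate with Ly6C negative cells.

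Ly6 proteins are small, cysteine-rich proteins that are tethered to the outer face of the membrane by a glycosylphosphatidylinositol (GPI) anchor and share the fold of the three-finger toxins. In mouse lymphocytes Ly6a encodes Sca-1, which marks blood stem cells and is induced in T cells by interferons and activation. Ly6c1 and its neighbour Ly6c2 encode the Ly-6C antigen, which splits naive CD4 T cells into positive and negative cells and marks a monocyte subset. Ly6e encodes a widely expressed, interferon-inducible member first described as thymic shared antigen 1.

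In the RefSeq gene order the members lie on mouse chromosome 15 among 23 protein-coding genes between Psca and Ly6f, of which 5 are listed with values here (Them6, Lynx1, Ly6e, Ly6a and Ly6c1). Ly6a lies next to Ly6c1, Ly6c1 lies next to Ly6c2, and Ly6i separates Ly6e and Ly6a. The start of each coding sequence is shown because it lets the reader see how closely Ly6c1 resembles the gene that was not measured separately here. The lines give the first 90 coding bases in the 5′ to 3′ direction on the gene's own strand, taken from the reference mouse transcripts, and capitals mark bases that differ from Ly6c1 in a pairwise alignment.
Ly6c1: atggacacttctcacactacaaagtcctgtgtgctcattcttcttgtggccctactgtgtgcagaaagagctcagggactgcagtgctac
Ly6c2: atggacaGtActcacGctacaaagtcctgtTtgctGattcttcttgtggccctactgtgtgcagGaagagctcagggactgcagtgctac
Ly6a: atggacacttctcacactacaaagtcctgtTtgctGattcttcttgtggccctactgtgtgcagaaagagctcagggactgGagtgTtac
Ly6e: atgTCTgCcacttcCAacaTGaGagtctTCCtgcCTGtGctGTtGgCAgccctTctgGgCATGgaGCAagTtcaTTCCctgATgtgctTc
In this stretch Ly6c2 differs from Ly6c1 at 6 bases, Ly6a at 4 and Ly6e at 41 of 93 aligned columns. Over the whole coding sequence Ly6c1 and Ly6c2 are identical at 97.7% of aligned columns (384 of 393), Ly6c1 and Ly6a at 81.8%, and Ly6c1 and Ly6e at 49.5%. Of the 50-base windows in the longest coding Ly6c1 transcript, 31.7% (252 of 795) also occur in Ly6c2 and 5.03% in Ly6a, whereas none occur in Ly6e. Neither the read length nor the treatment of reads that match several genes is given in the sources used here. The division of reads between Ly6c1 and Ly6c2 is therefore uncertain, and the Ly6c1 values below may hold reads of either gene. Ly6e carries no such ambiguity with the genes compared.

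All 3 members were well expressed. Over the 12 libraries Ly6e averaged 189 RPKM, Ly6a 62.2 RPKM and Ly6c1 54.1 RPKM, which placed them at percentiles 98.1, 91.2 and 89.2 of all listed genes. Ly6a exceeded Ly6c1 in 10 of 12 libraries. That order depends on the gene length used. The lengths deposited were 2102 bases for Ly6c1, 1580 for Ly6a and 3050 for Ly6e, and with the longest coding transcript of each gene (844, 955 and 2281 bases) Ly6a exceeded Ly6c1 in 1 of 12 libraries. Comparisons of 1 gene between libraries do not depend on the length.

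Ly6c1, whose product is one of the antigens bound by Ly6C antibodies, had 44.5, 48.4 and 38.2 RPKM in population D of mice 1, 2 and 3, against 67.0, 66.7 and 59.3 RPKM in population C. It had 50.2, 37.1 and 44.5 RPKM in population B, against 63.0, 58.1 and 72.6 RPKM in population A. All 6 B and D libraries were therefore below all 6 A and C libraries, with B1 the highest of the lower set and A2 the lowest of the upper set. Of the 10021 genes tested, 0.699% separated the libraries in that way, and Ly6a and Ly6e did not. This split was chosen after the values were seen, so the share is a description and not a test.

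Ly6a had 50.6, 54.3 and 50.2 RPKM in population D, against 74.6, 67.4 and 93.3 RPKM in population C. It had 62.4, 46.5 and 50.9 RPKM in population B, against 59.98, 65.0 and 70.7 RPKM in population A. Every D library was below every C and every A library, whereas B1 lay above A1. The C3 library held the highest value of the 12.

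Ly6e had 170, 184 and 176 RPKM in population D, against 195, 206 and 223 RPKM in population C. It had 198, 174 and 174 RPKM in population B, against 183, 192 and 191 RPKM in population A. The D libraries were all below the C libraries, but B and A overlapped, with B1 the third highest library of all and B2 and B3 among the 3 lowest. C3 again held the highest value.

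**Figure D1:**
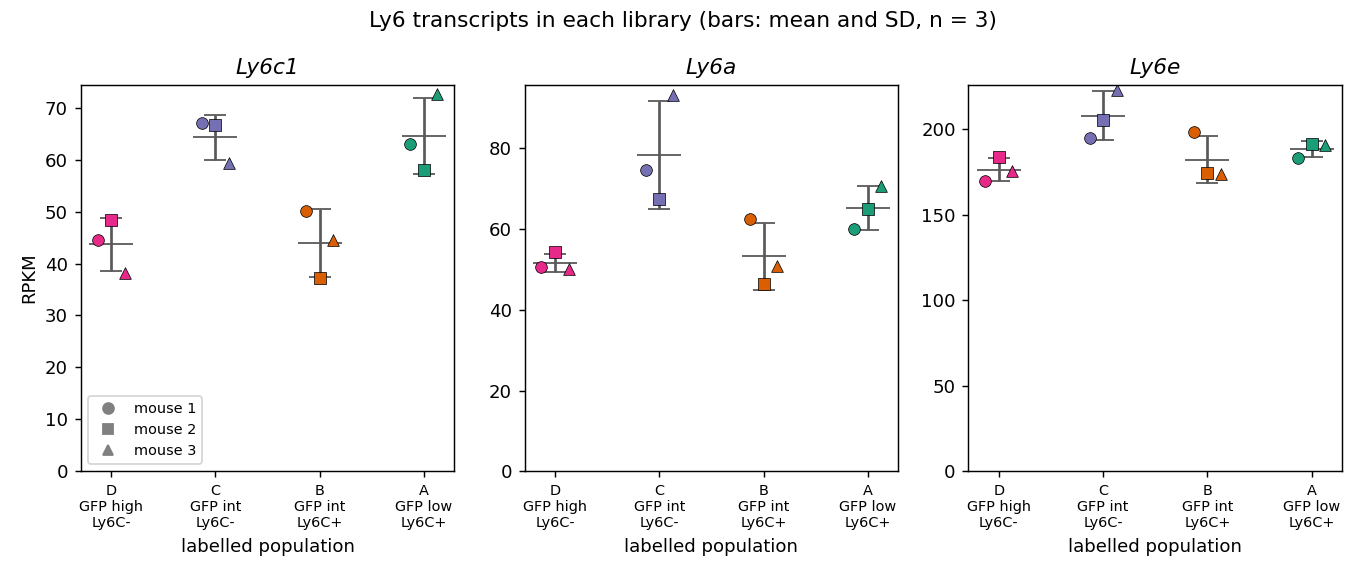
RPKM of each member (vertical axis, from 0) in each library, by labelled population (horizontal axis); marker shape gives the mouse, and the bar is the mean with its SD (n = 3). The Ly6c1 points of D and B (37.1 to 50.2 RPKM) all lie below those of C and A (58.1 to 72.6 RPKM), while the Ly6e points of B and A overlap.

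The spread over libraries was wider for Ly6c1 and Ly6a than for Ly6e. The highest library held 1.96 times the lowest for Ly6c1, 2.01 times for Ly6a and 1.31 times for Ly6e, and the coefficients of variation were 22.01%, 21.4% and 8.17%. Among genes within 1.5-fold of the same level, 97.8% varied less than Ly6c1, 97.7% less than Ly6a and 74.4% less than Ly6e. Counting error was smaller than this spread. The fewest reads recovered were 671 for Ly6c1, 623 for Ly6a and 3669 for Ly6e, which give counting coefficients of variation of 3.86%, 4.01% and 1.65%.

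Several libraries stood apart from the others of their label. Nr4a1, the gene whose regulatory sequence drives the sorted GFP, was listed at 36.0 RPKM in B1 and at 73.3 and 64.6 RPKM in B2 and B3, and at 57.7 RPKM in A1 and at 26.1 and 22.9 RPKM in A2 and A3. It averaged 63.7 ± 4.61 RPKM in population D and 26.0 ± 2.48 RPKM in population C (SD, n = 3 each), so populations C and B, with the same GFP label, differed in this transcript, with the lower value in C in each mouse. On the first principal component, which took 40.3% of the variance, B1 was at -9.41 and B2 and B3 were at 13.8 and 12.1, whereas A1 was at 8.08 and A2 and A3 were at -12.4 and -13.5. Dntt, which encodes the terminal transferase, ran with the labels instead, at 7.91 RPKM in B1 and 5.79 and 5.52 RPKM in B2 and B3, against 14.0 RPKM in A1 and 15.2 and 13.2 RPKM in A2 and A3. Whether A1 and B1 carry each other's label was not tested, and an exchange would turn the sign of every B against A difference of mouse 1. Cd5, a surface protein that tracks the strength of T cell receptor signals, averaged 309.6 ± 11.4 RPKM in D and 176 ± 12.4 RPKM in C, and 291 ± 49.2 RPKM in B and 191 ± 43.97 RPKM in A. The C3 library held 709 RPKM of Jchain, a plasma cell gene, against 0.515 to 6.33 RPKM elsewhere, and lay alone on the second component. In the same library the 1 of 8 B cell markers listed reached 37.4 RPKM, against 3.57 to 8.80 RPKM elsewhere. The 2 of 10 dendritic cell markers listed summed to 250 RPKM in C3, against 33.0 to 54.8 RPKM elsewhere. Cd74 alone stood at 209 RPKM in C3, against 3.12 to 19.7 RPKM elsewhere. Which cells gave these transcripts was not tested. Erythroid markers, 2 of 6 listed, summed to between 8.13 and 176 RPKM. Cd4 was listed at 224 to 250 RPKM, and 9 of 10 T cell markers were listed. The population comparisons are given with and without the libraries that stand apart. A1 and B1 were chosen for leaving out after the data were seen, for their place in Nr4a1 and on the first component. The members also follow that component, so their calls without A1 and B1 are a description and no independent evidence.

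The step in GFP among Ly6C negative cells was read from D against C. Ly6c1 averaged 43.7 ± 5.10 RPKM in D and 64.3 ± 4.36 RPKM in C (SD, n = 3 each), a log2 difference of -0.56 ± 0.12 (SE) that was negative in 3 of 3 mice. Ly6a averaged 51.7 ± 2.26 RPKM in D and 78.4 ± 13.4 RPKM in C, a difference of -0.58 ± 0.12, also negative in 3 of 3 mice. Ly6e averaged 176 ± 6.93 RPKM in D and 208 ± 14.2 RPKM in C, a difference of -0.24 ± 0.06, negative in 3 of 3 mice. In limma across all 12 libraries none of the 3 passed, each with an adjusted p of 0.106, and 0.00998% of genes tested (1 of 10021) passed. Lack of overlap between D and C was itself common, since 9.89% of genes tested had every D library below every C library.

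The D against C call depended on the libraries in the fit, which share one estimate of the spread. Without A1 and B1, which are in neither population compared, all 3 members were lower in D by limma, with adjusted p-values of 0.00968 for Ly6c1, 0.00484 for Ly6a and 0.0174 for Ly6e, and 7.63% of genes tested passed. Leaving out B1 alone was enough for all 3 (adjusted p 0.0229, 0.0229 and 0.0326), and leaving out A1 alone was enough for Ly6c1 and Ly6a (0.0378 and 0.0341). In a fit of the 6 D and C libraries alone, where 4.8% of genes passed, Ly6c1 and Ly6a passed (adjusted p 0.0102 and 0.0195) and Ly6e did not (0.0633). Without C3 the differences in the fit of the other 11 libraries were -0.61 for Ly6c1, -0.45 for Ly6a and -0.18 for Ly6e.

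The T cell, regulatory T cell and NK marker sums separated D from C, whereas the plasma cell and monocyte sums overlapped. No gene of these lists passed in D against C by limma over 12 libraries. The 9 T cell markers summed to 2061 to 2158 RPKM in D and 1766 to 1949 RPKM in C. The 6 of 6 regulatory T cell markers listed summed to 68.1 to 77.9 RPKM in D and 33.7 to 36.2 RPKM in C. The 2 of 8 NK markers listed summed to 21.4 to 22.8 RPKM in D and 16.6 to 19.0 RPKM in C, but moved apart, with log2 differences of 3.56 for Eomes and -0.43 for Prf1, which encodes perforin (limma adjusted p 0.106 each over 12 libraries). The 4 of 8 plasma cell markers listed summed to 27.1 to 34.3 RPKM in D and 22.4 to 871 RPKM in C, with C3 at the top. None of 9 neutrophil markers was listed, and the 4 of 10 monocyte markers summed to 154 to 161 RPKM in D and 140 to 201 RPKM in C. The part of these transcripts in the Ly6 differences was not tested. In bulk RNA, fewer cells with a transcript and less transcript per cell cannot be told apart.

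The step in GFP among Ly6C positive cells was read from B against A. Ly6c1 averaged 43.9 ± 6.53 RPKM in B and 64.6 ± 7.40 RPKM in A (SD, n = 3 each) and was lower in B in 3 of 3 mice under the labels as given, with log2 differences of -0.33, -0.65 and -0.71 for mice 1, 2 and 3. The limma difference was -0.55 ± 0.12 (SE) with an adjusted p of 0.0452, so Ly6c1 fell in B, where 2.23% of genes tested passed (223, of which 57 were higher and 166 lower). With the mouse as a block the adjusted p was 0.0671 and the number of genes passing was 2. The call was also lost in limma without A2, A3, B2, B3, C2 or D2 (adjusted p 0.139, 0.151, 0.108, 0.136, 0.0584 and 0.0646), while the difference stayed between -0.65 and -0.44. When A1 and B1, the libraries standing apart in Nr4a1, were left out, it was -0.67 with an adjusted p of 0.0104, and 10.9% of genes passed.

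Ly6a averaged 53.3 ± 8.23 RPKM in B and 65.2 ± 5.38 RPKM in A (SD, n = 3 each), a log2 difference of -0.30 ± 0.12 with an adjusted p of 0.164 by limma. Its difference was 0.06 in mouse 1 and -0.48 and -0.47 in mice 2 and 3. Leaving out A1 and B1 gave -0.48 with an adjusted p of 0.0326. Ly6e averaged 182 ± 13.8 RPKM in B and 188 ± 4.62 RPKM in A, a log2 difference of -0.05 ± 0.06 with an adjusted p of 0.653 by limma, and its 95% interval was -0.19 to 0.08. Leaving out A1 and B1 gave -0.13 with an adjusted p of 0.195. Every B library was below every A library for Ly6c1 alone among the members, as for 15.8% of genes tested.

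The T cell markers summed to 1996 to 2135 RPKM in B and 1832 to 2002 RPKM in A. Of the 9 T cell markers, 2 passed by limma over 12 libraries, both higher in B, where 2.23% of all genes passed. None of the T cell markers passed with the mouse as a block. Marker sums overlapped for regulatory T cell genes, at 36.8 to 74.7 RPKM in B and 34.0 to 75.8 RPKM in A, and for NK genes, at 16.0 to 22.1 RPKM in B and 15.7 to 22.3 RPKM in A. These overlaps rest on A1 and B1. The regulatory T cell markers summed to 74.7 and 67.4 RPKM in B2 and B3, against 35.6 and 34.0 RPKM in A2 and A3, and to 36.8 RPKM in B1, against 75.8 RPKM in A1. Over 12 libraries none of the 6 passed by limma in B or in D. Without A1 and B1, 5 of the 6 rose in B by limma, with a median log2 difference of 1.39, where 10.9% of all genes passed. All 6 rose in D in that fit, with a median of 1.24, where 7.63% of all genes passed. The NK markers summed to 22.1 and 19.4 RPKM in B2 and B3, against 16.7 and 15.7 RPKM in A2 and A3, with Eomes higher and Prf1 lower in B (3.68 and -0.52 without A1 and B1). The monocyte markers summed to 150 to 159 RPKM in B and 163 to 170 RPKM in A, and the plasma cell markers to 25.4 to 32.6 RPKM in B and 26.1 to 33.6 RPKM in A. Their part in the Ly6c1 difference was not tested.

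A contrast added after the values were seen averaged both GFP steps, setting B and D against A and C. Ly6c1 differed by -0.56 ± 0.08 on the log2 scale (limma adjusted p 0.0191) and Ly6a by -0.44 ± 0.08 (0.0324), both lower in B and D, where 4.27% of genes passed. Ly6e differed by -0.14 ± 0.04 and did not pass (0.0718). With the mouse as a block, the adjusted p-values were 0.0529 for Ly6c1 and 0.0739 for Ly6a. The Ly6c1 call was lost without A2, A3, B3, C1 or D3 (adjusted p 0.0685, 0.0556, 0.0702, 0.0652 and 0.0646). The Ly6a call was lost without A2, A3, B2, B3, C1, D2 or D3 (adjusted p 0.1, 0.0967, 0.096, 0.0937, 0.074, 0.0859 and 0.0913). All 3 passed without A1 and B1 (0.000657, 0.00104 and 0.00989), as 17.4% of genes did, and without B1 alone Ly6e passed (0.0152).

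Whether the step differed between the Ly6C gates was tested directly, as D minus C less B minus A. For Ly6c1 that difference was -0.00 ± 0.16 with a 95% interval of -0.36 to 0.35. It was -0.29 ± 0.17 for Ly6a (-0.65 to 0.08) and -0.18 ± 0.09 for Ly6e (-0.37 to 0.01). The limma adjusted p-values were 0.997, 0.437 and 0.348, and 0% of genes passed by limma or by limma-voom on the recovered reads, with 1507 and 1498 at an unadjusted p under 0.05. The intervals are wide beside the steps themselves, so equal steps in both gates are not shown.

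**Figure D2:**
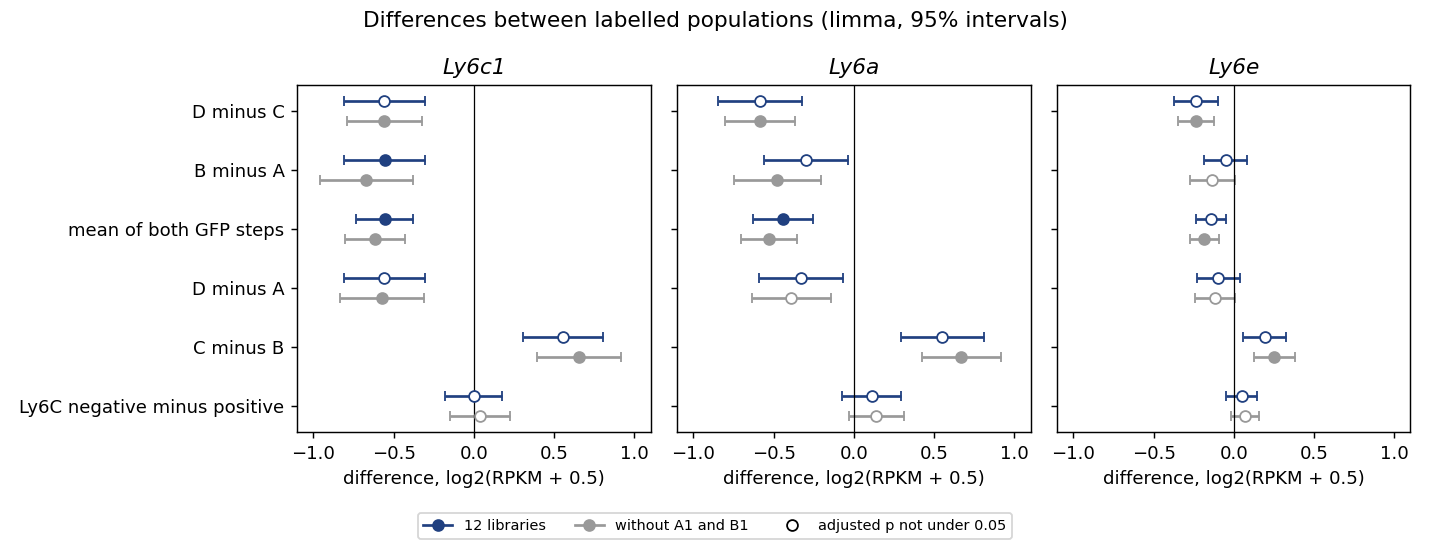
Log2 differences of each member (horizontal axis, log2 of RPKM + 0.5) for each comparison (vertical axis), with 95% intervals from limma over 12 libraries (blue) and without A1 and B1 (grey); filled points have an adjusted p under 0.05. Ly6c1 differs by -0.56 in D minus C and -0.55 in B minus A, and its Ly6C negative minus positive difference lies at 0.

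The Ly6C gate itself was compared next, because Ly6c1 encodes part of the antigen that was sorted on. Ly6c1 averaged 54.0 ± 12.1 RPKM in the 6 Ly6C negative libraries and 54.2 ± 12.9 RPKM in the 6 Ly6C positive libraries (SD). The log2 difference was -0.00 ± 0.08 with a 95% interval of -0.18 to 0.18 in limma. A two-sided exact permutation test over the 924 arrangements of the libraries, taken as independent although they share mice, gave p = 0.989. This mean combines opposite differences, 0.55 for C minus B and -0.56 for D minus A, so a value near 0 does not show that Ly6c1 is unrelated to the gate. At the same GFP label, every Ly6C negative library (C) was above every Ly6C positive library (B) for Ly6c1, as for 6.31% of genes tested. The C minus B difference of Ly6c1 did not pass by limma over 12 libraries (adjusted p 0.271). Populations C and B also differed in Nr4a1 transcript despite the shared GFP label. Ly6c2, whose product the same antibodies bind, is not analysed here.

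Ly6a averaged 65.1 ± 16.97 RPKM in Ly6C negative and 59.3 ± 9.04 RPKM in Ly6C positive libraries (SD, n = 6 each; exact permutation p = 0.548). Ly6e averaged 192 ± 20.0 RPKM in Ly6C negative and 185 ± 9.83 RPKM in Ly6C positive libraries (exact permutation p = 0.496). Without C3 the Ly6a difference was -0.00058 on the log2 scale, in place of 0.11, and its exact permutation p was 0.996. These were 3 tests, one for each member. With libraries permuted only within mice, the exact permutation p-values were 0.991 for Ly6c1, 0.556 for Ly6a and 0.565 for Ly6e. In limma 0% of genes tested passed for the gate, as also without A1 and B1. By limma 355 genes were at an unadjusted p under 0.05, and by limma-voom on the recovered reads 0 passed and 304 were under 0.05.

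At the same labelled GFP level, C against B, all 3 members had higher values in C without passing the test. The log2 difference was 0.55 ± 0.12 for Ly6c1, 0.55 ± 0.12 for Ly6a and 0.19 ± 0.06 for Ly6e, with limma adjusted p-values of 0.271, 0.272 and 0.287. Every C library was above every B library for Ly6c1 and Ly6a, as for 6.31% of genes tested, and 0.00998% of genes passed. All 3 passed without A1 and B1, with differences of 0.65, 0.67 and 0.25 and adjusted p-values of 0.00776, 0.00434 and 0.0219, as 7.74% of genes did. Without B1 alone the adjusted p-values were 0.0274, 0.0257 and 0.0396. Nr4a1 was lower in C in each mouse.

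Between the ends of the sort, D against A, Ly6c1 differed by -0.56 ± 0.12 (limma adjusted p 0.151), Ly6a by -0.33 ± 0.12 (0.193) and Ly6e by -0.10 ± 0.06 (0.420). All 3 differences were negative in 3 of 3 mice. The D libraries were all below the A libraries for Ly6c1 and Ly6a, as for 11.7% of genes tested, and 0.00998% of genes passed. With A1 and B1 left out, Ly6c1 passed (adjusted p 0.0155) and Ly6a did not (0.0553), where 8.84% of genes passed, and Ly6c1 also passed without A1 alone (0.0435). Populations D and C, B and A, C and B, and D and A share libraries, so these comparisons are not independent of each other. In a single test for any difference among the 4 populations the limma adjusted p-values were 0.114, 0.115 and 0.154 for Ly6c1, Ly6a and Ly6e, where 0.00998% of genes passed. They were 0.00568, 0.00588 and 0.0315 without A1 and B1, where 9.63% passed.

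The members were also set against each other within each library, where the scaling to depth cancels. Ly6e was 4.07 ± 0.452 times Ly6c1 in D and 3.25 ± 0.450 times in C, and 4.19 ± 0.442 times in B and 2.94 ± 0.337 times in A (SD, n = 3 each). The ratio of Ly6a to Ly6c1 was 1.19 ± 0.107 in D and 1.23 ± 0.300 in C, and 1.21 ± 0.0595 in B and 1.02 ± 0.0908 in A. The ratio of Ly6e to Ly6a was 3.41 ± 0.0718 in D and 2.69 ± 0.336 in C, and 3.45 ± 0.291 in B and 2.90 ± 0.183 in A. The ratios of Ly6e to Ly6c1 and of Ly6e to Ly6a were each higher in all D than in all C libraries, and higher in all B than in all A libraries. How often ratios of other genes separate in this way was not counted. The ratio of Ly6a to Ly6c1 was highest in C3, at 1.57. None of the 3 ratios differed between Ly6C negative and positive libraries in two-sided exact permutation tests (p = 0.366 for Ly6a over Ly6c1, 0.764 for Ly6e over Ly6c1 and 0.584 for Ly6e over Ly6a). Those tests take the libraries as independent. Permuted only within mice, the p-values were 0.398, 0.787 and 0.593 in the same order.

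Across the 12 libraries Ly6c1 and Ly6a had a Pearson correlation of 0.80 and a Spearman correlation of 0.88, and the Pearson value was 0.93 without C3. Ly6a and Ly6e correlated at 0.92, and at 0.86 without C3. Ly6c1 and Ly6e correlated at 0.65, and at 0.75 without C3. These describe libraries that share mice, populations and depth, and carry no test. Within populations, as deviations from each population's mean, the values were 0.37 for Ly6c1 and Ly6a, 0.83 for Ly6a and Ly6e, and 0.26 for Ly6c1 and Ly6e. These within-population values include C3, the highest library for both Ly6a and Ly6e, and were not computed without it. The members also followed the first principal component, at -0.80, -0.86 and -0.82 for Ly6c1, Ly6a and Ly6e.

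**Figure D3:**
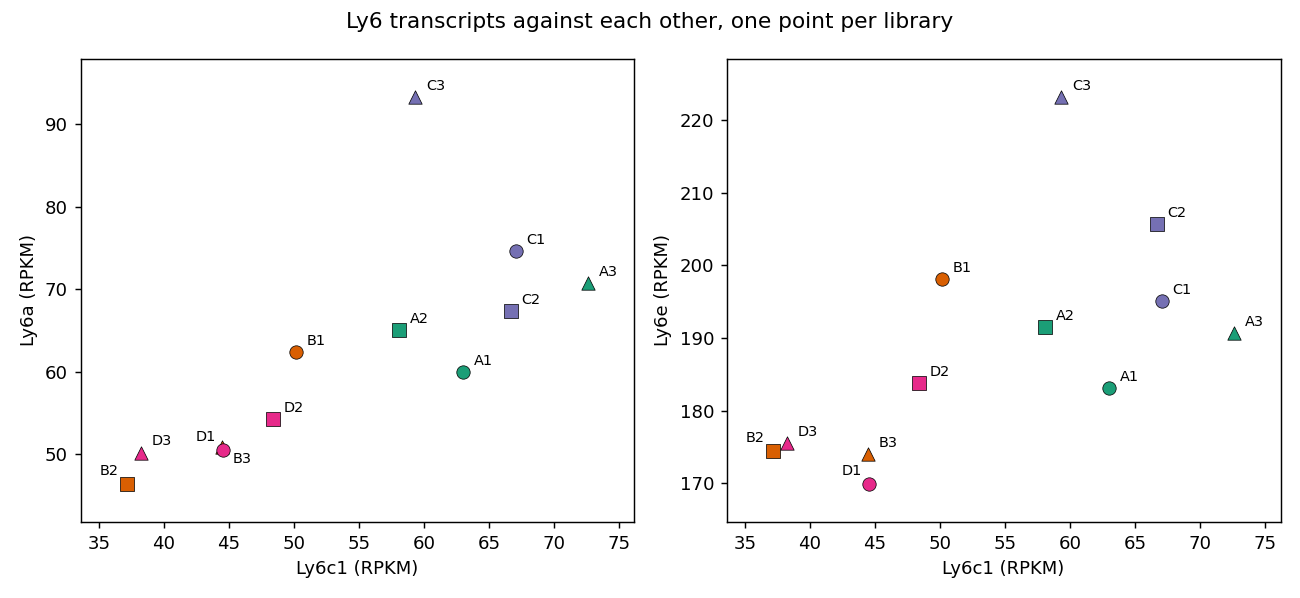
Ly6a (left) and Ly6e (right) against Ly6c1, in RPKM, 1 point per library, with colour for the labelled population and shape for the mouse. Ly6a follows Ly6c1 closely except in C3, at 93.3 RPKM of Ly6a and 59.3 RPKM of Ly6c1.

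The genes with patterns most like each member were taken by Pearson correlation of log2 values over the 12 libraries, among 8895 genes compared. For Ly6c1 they were Pdk1, a kinase that restrains pyruvate dehydrogenase (0.96), Adamts14, a secreted metalloprotease (0.95), Alg11, an enzyme of N-glycan assembly (0.95), Cd8b1, the CD8 beta chain (0.94), and Mettl9, a methyltransferase (0.93). The most opposite were Cfp, which encodes properdin of the complement system (-0.94), Mfge8, which binds apoptotic cells (-0.93), and Hjurp, a chaperone of the centromeric histone (-0.93). Cd8b1 was listed at 9.94 to 16.0 RPKM and is 1 of 2 CD8 T cell markers with a value. It stood at 10.2 to 11.2 RPKM in D and 12.7 to 16.0 RPKM in C, and at 9.94 to 11.5 RPKM in B and 13.3 to 14.6 RPKM in A. Cd8b1 was picked for its likeness to Ly6c1 in these same libraries, so its separating the same pairs is no separate evidence. Every D library was below every C library for 9.89% of genes tested, and every B library below every A library for 15.8%. The part of Cd8b1 in the Ly6c1 differences was not tested.

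For Ly6a the most alike were Stt3b, a catalytic subunit of oligosaccharyltransferase (0.97), Cdc42se2, a Cdc42 effector (0.96), Ccpg1, a receptor for autophagy of the endoplasmic reticulum (0.95), Hid1 (0.94) and Bbs9, a subunit of the BBSome (0.94). The most opposite were Cep95 (-0.96), the corepressor Rcor1 (-0.95) and the deacetylase Hdac1 (-0.95). For Ly6e the most alike were Hid1 (0.95), the ribosomal protein genes Rplp2 (0.95), Rplp1 (0.94) and Rps23 (0.93), and Ifi30, a lysosomal thiol reductase (0.94). The most opposite were the kinase gene Tnik (-0.97), Rasgrp1, which activates Ras downstream of the T cell receptor (-0.97), and the transcription factor gene Ets1 (-0.97). C3 lay farthest from the mean for each of the genes named for Ly6a and for Ly6e. Without C3 the correlations were 0.89 (Hid1) to 0.94 (Stt3b) for the alike genes of Ly6a and 0.90 (Rps23) to 0.93 (Rplp1) for those of Ly6e, and -0.93 (Rcor1) to -0.95 (Hdac1) and -0.94 (Ets1) to -0.96 (Tnik) for the opposite ones. By Spearman correlation 3 of 5, 1 of 5 and 0 of 5 of the alike genes stayed among the top 5 for Ly6c1, Ly6a and Ly6e.

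**Figure D4:**
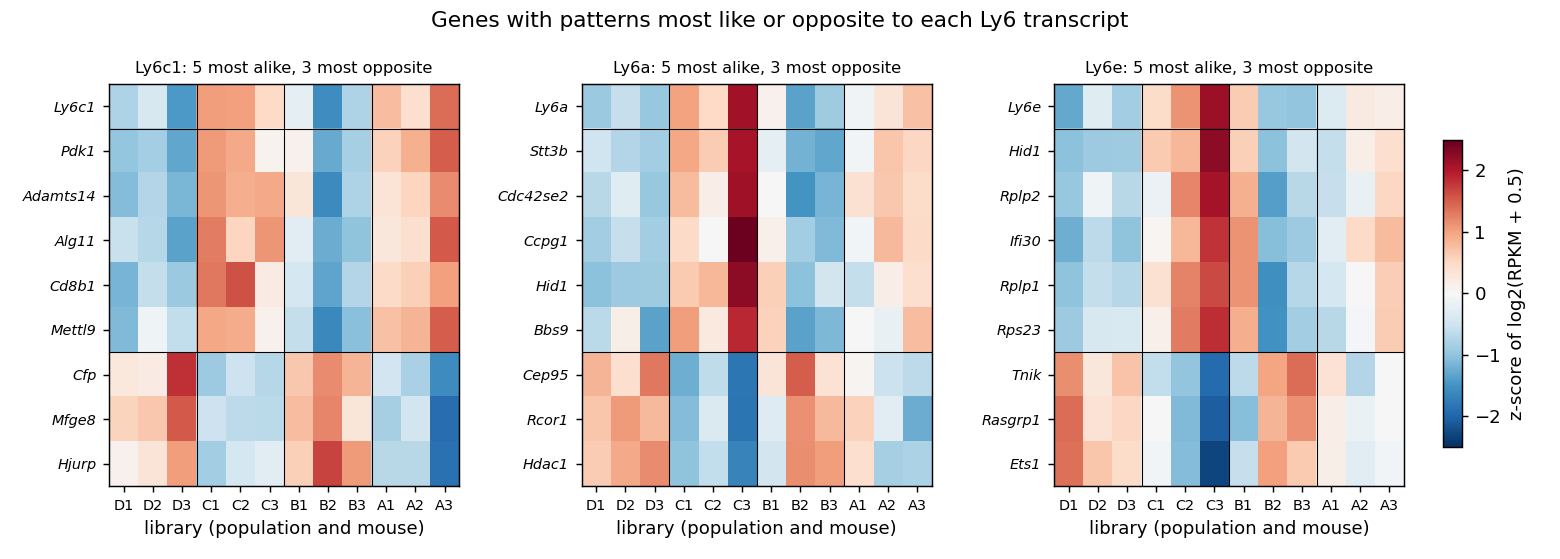
Z-scores of log2(RPKM + 0.5) over the 12 libraries (columns) for each member, its 5 most alike and its 3 most opposite genes (vertical axis), red for high and blue for low. For Ly6c1 the D, B2 and B3 columns stand against the C and A columns, with B1 on the C and A side for Pdk1 and Adamts14, whereas for Ly6e the C3 column is the extreme one.

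Other Ly6 family genes were few. Of 47 family genes other than the members, 3 were listed: Lypd6b at a mean of 12.2 RPKM, Plaur, the urokinase receptor, at 3.00 RPKM, and Lynx1, a modulator of nicotinic receptors, at 1.21 RPKM. None passed the limma test in D against C or B against A, with or without A1 and B1. In D against C the log2 differences were 0.02, -0.10 and -0.08 for Lypd6b, Plaur and Lynx1, and in B against A they were -0.25, -0.10 and 0.03. How these differences compare with those of the members was not tested.

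Genes of the GPI anchor and of its other cargo were taken from lists. Of 13 GPI-anchored lymphocyte proteins tested, none passed in either step over 12 libraries. In limma without A1 and B1, 5 rose and 2 fell in D, and 3 rose and 3 fell in B, where 7.63% and 10.9% of all genes passed in D and B. The folate receptor relative Izumo1r, a marker of regulatory and anergic T cells, rose in both, by 1.35 in D and 1.46 in B on the log2 scale. Nt5e, the ecto-nucleotidase CD73, rose by 1.09 in D and 1.04 in B, and Sema7a rose by 1.20 in D and 1.90 in B. Thy1, the pan T cell marker, fell by 0.40 in D and 0.46 in B. Over 12 libraries the median difference of the 13 genes was -0.08 in D and -0.08 in B, beside 0.01 for all genes in each step. Of 26 tested genes that make, attach or remodel the anchor, 1 rose in B over 12 libraries, Pigt of the transamidase (0.24 ± 0.06, limma adjusted p 0.0466, and 0.0787 with the mouse as a block), and none passed in D. With A1 and B1 left out, 2 rose in B (Pgap2 by 0.35 and Pigt by 0.25) and none passed in D, beside 10.9% and 7.63% of all genes. Their median was 0.00 in D and -0.01 in B over 12 libraries.

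Ly6a and Ly6e are interferon-inducible, so other interferon genes were read beside them. None of 65 interferon-stimulated genes tested passed in either step over 12 libraries, with medians of -0.02 in D and 0.02 in B, beside 0.01 for all genes in each. The smallest p-values belonged to Slfn5 in D (0.36, adjusted p 0.106 by limma) and Adar in B (0.19, 0.0502). In the fit without A1 and B1, 1 rose and 5 fell in D, and none rose and 7 fell in B. Those called in D included the guanylate-binding protein gene Gbp2, which fell by 0.24, the oligoadenylate synthetase gene Oas2, which fell by 0.48, and the immunoproteasome gene Psmb9, which fell by 0.25, while Slfn5 rose by 0.36. Those called in B included B2m, the light chain of MHC class I, which fell by 0.29, Gbp2, which fell by 0.25, and the GTPase genes Irgm1 and Irgm2, which fell by 0.27 and 0.26. These shares of 6 and 7 of 65 stand beside the 7.63% and 10.9% of all genes that passed.

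None of 14 genes of interferon signalling passed over 12 libraries, with medians of 0.02 in each step. Leaving out A1 and B1, 1 rose and 2 fell in D and 2 rose and 2 fell in B, beside the same shares of all genes (7.63% and 10.9%). The kinase gene Jak2 rose by 0.53 in D and 0.27 in B, Socs3, a feedback inhibitor of cytokine receptors, fell by 0.43 in D and 0.42 in B, Socs1 fell by 0.29 in D, the receptor gene Ifnar2 rose by 0.39 in B and Ifngr1 fell by 0.31 in B. Socs1 stands in both interferon lists. Of 14 genes linked to the naive and memory state, 1 passed over 12 libraries, the killer receptor gene Klrd1, which fell by 0.81 in B (limma adjusted p 0.0463, and 0.0552 with the mouse as a block), and the list's medians were 0.01 in D and -0.03 in B. Without A1 and B1, 2 rose and 1 fell in D and 2 rose and 2 fell in B, again beside 7.63% and 10.9% of all genes. Eomes, a T-box factor of memory cells, rose by 3.56 in D and 3.68 in B, Il2rb, the interleukin 2 receptor beta chain, rose by 1.95 in D and 2.16 in B, and Il7r, the interleukin 7 receptor alpha chain, fell by 0.76 in D and 1.06 in B, where Klrd1 also fell, by 1.06. Eomes also stands in the NK marker list, so its values here repeat those given there.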

How the data were processed

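RNA was measured in 12 libraries. Per the labels' protocols, sorted cells were lysed, the Quick-RNA MicroPrep kit gave RNA, and the SMART-seq v4 and NexteraXT kits gave cDNA and libraries. The submitters' processing notes name STAR and the builds mm9 and mm10, without roles; for the counting tool, annotation and use of strand nothing is given. The authors deposited RPKM values and a length per gene, per the file headers. Depths of 6.31 to 9.07 M reads (mega) per library were recovered from the steps between low values, and at these depths 100% of the values examined were whole to within 0.1 read.

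Differences were fitted with limma 3.58.1 (R 4.3.3) and its trended prior variance, on log2(RPKM + 0.5) values of the 10021 genes with a mean RPKM of at least 0.5, with all 12 libraries in one fit and Benjamini-Hochberg adjustment over all genes tested; a call is an adjusted p under 0.05. Fold changes of low genes are understated on this scale. P-values measure the spread between these libraries. The members and lists were chosen with earlier results of these data known. Named genes are the members, the 5 most and 3 least correlated genes of each member with a mean RPKM of at least 2, up to 4 called genes of a list (up to 2 if none was called), and the other listed family genes. By the labels, libraries of the same mouse come from the same animal, so numbers pair the libraries. Their deviations from population means correlated at a mean of -0.0721 over 18 pairs (1 over 0.1) and at 0.0316 between mice. Alternatives were other pseudocounts (0.1 and 1), other filters (none and 5 RPKM), rescaling, quantile normalization, no trend, robust moderation, limma-voom on recovered reads, mouse as a block, each library left out, and, chosen after seeing the data, leaving out A1 and B1, or A1, B1 and C3, and removing a trend in GC content and length. Sequences were aligned with Biopython 1.88 from reference transcripts. The fit was tested on simulated data.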

Additional observations from a re-analysis of the deposited data

How the results depend on the processing

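Direction and side of the threshold were kept under the other pseudocounts, filters, rescaling, quantile normalization and robust moderation for every member and comparison. Over all alternatives 631 values kept both, 41 gained a call, 25 lost one and 32 changed sign, and each sign change was in a difference that passed under no setting. With the mouse as a replicate block, the calls for Ly6c1 in B minus A (-0.55, adjusted p 0.0671; 0.0581 as a random term) and in the mean of the GFP steps (-0.56, 0.0529), and for Ly6a in the mean of the steps (-0.44, 0.0739), were lost, and no other call of a member changed. Without the trend, Ly6c1 in B minus A (-0.55, 0.0668) and Ly6a in the mean of the steps (-0.44, 0.0518) were lost. With the GC content and length trend removed, Ly6c1 in B minus A (-0.53, 0.138) was lost, Ly6e in the mean of the steps (-0.19, 0.0495) was gained and the Ly6c1 difference of the steps was 0.030. In 6 libraries alone, D minus C was gained for Ly6c1 (-0.56) and Ly6a (-0.58).

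Without A1 and B1, calls were gained for Ly6c1 in D minus C (-0.56), C minus B (0.65), D minus A (-0.57) and any difference (p 0.00568), for Ly6a in D minus C (-0.58), B minus A (-0.48), C minus B (0.67) and any difference (0.00588), and for Ly6e in D minus C (-0.24), C minus B (0.25), the mean of the steps (-0.18) and any difference (0.0315). Without A1, B1 and C3 the same values were -0.61, 0.71, -0.57 and 0.00222 for Ly6c1, -0.45, -0.48, 0.54 and 0.000466 for Ly6a, with D minus A added (-0.39), and -0.18, 0.20, -0.16 and 0.0329 for Ly6e. Signs turned for the Ly6c1 gate difference (0.041 in both tests without A1 and B1; 0.0081 in the permutation test and 0.069 in limma without C3 too; 0.0077 by limma-voom), for the Ly6c1 difference of the steps (0.11 and 0.056) and for the Ly6a difference of the steps without A1, B1 and C3 (0.023). The cause of these shifts was not tested.

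With each library left out, the Ly6c1 differences ranged over -0.63 to -0.46 (D minus C), -0.65 to -0.44 (B minus A), 0.44 to 0.65 (C minus B), -0.63 to -0.47 (D minus A), -0.61 to -0.50 (mean of the steps), -0.12 to 0.098 (difference of the steps) and -0.059 to 0.048 (gate in limma; -0.10 to 0.092 in the permutation test). Those of Ly6a ranged over -0.69 to -0.45, -0.42 to -0.21, 0.42 to 0.67, -0.39 to -0.27, -0.50 to -0.38 and -0.39 to -0.15 in the same order, and -0.00058 to 0.18 in the gate permutation test. Those of Ly6e ranged over -0.28 to -0.18 (D minus C), 0.14 to 0.25 (C minus B) and -0.17 to -0.12 (mean of the steps), and the log2 ratios over -0.11 to 0.0042 (Ly6e to Ly6a) and -0.033 to 0.135 (Ly6e to Ly6c1). The adjusted p for any difference ranged over 0.0260 to 0.265 (Ly6c1) and 0.0336 to 0.265 (Ly6a). Counting error was smaller than the spread of each member over libraries.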
